A study of Mus musculus with 10 samples.

Results

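Blood vessels of white fat are wrapped by mural cells, and 9 of the genes used to mark them are described here in inguinal white adipose tissue, a depot under the skin of the groin. They are 4 pericyte markers (Pdgfrb, Rgs5, Cspg4 and Notch3) and 5 smooth muscle markers (Acta2, Tagln, Myh11, Cnn1 and Mylk). They were picked by gene symbol out of 40501 gene identifiers in the count table, with earlier results of these data known. All 9 passed the filter on low counts, which left 14913 genes to test. RNA-seq was done on whole tissue of 5 PexRAP-AKO mice (Cre-positive, replicates 1, 2, 3, 5 and 6) and 5 Control mice (Cre-negative, replicates 2, 3, 5, 7 and 8). All 10 were males on a C57/BL6J background fed chow. A label speaks of chow for 8 weeks and another of mice 8 weeks old, which leaves their age when the tissue was taken unclear. PexRAP, encoded by Dhrs7b, is a peroxisomal reductase of ether lipid synthesis and was deleted in adipose tissue of the PexRAP-AKO mice. The promoter that drives Cre, and so the cells in which the gene is lost, is not given in the sources used here, nor is whether Control mice carry the unrecombined allele.

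Pericytes sit on capillaries and share a basement membrane with the endothelium, whereas smooth muscle cells surround arterioles, arteries and larger veins. Endothelial cells recruit pericytes with the growth factor PDGF-B, which acts on the receptor PDGFRβ, and endothelial Notch ligands signal to NOTCH3 on mural cells. In smooth muscle, calcium switches on myosin light chain kinase, the kinase phosphorylates the light chain of smooth muscle myosin, and myosin pulls on α-actin filaments. Many genes of that contractile apparatus are switched on by serum response factor (SRF) with myocardin family coactivators, through a DNA element called the CArG box. In fat, some cells of the vessel wall have been described as adipocyte precursors, and PDGFRβ also marks fibroblastic stromal cells.

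The libraries held 11274865 to 19881168 counts. Dhrs7b (ENSMUSG00000042569, chr11:60830631-60860195, plus strand, GRCm38) was lower in every PexRAP-AKO library than in every Control library, at 17.9 to 22.8 CPM (the usual read count relative to library size, here scaled by TMM) in PexRAP-AKO against 61.2 to 95.8 CPM in Control. Its log2 fold change, PexRAP-AKO over Control, was -2.05 with an SE of 0.12 (adjusted p = 1.54e-05 by edgeR's quasi-likelihood test and the Benjamini-Hochberg method). Adipocyte markers were high in all libraries, with a summed level over 14 genes of 44169 to 56308 CPM in PexRAP-AKO and 45081 to 59558 CPM in Control. Over all genes tested, 15 passed an adjusted p of 0.05, which is 0.101%, with 14 higher and 1 lower (Dhrs7b) in PexRAP-AKO.

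None of the 9 mural cell markers was called different between PexRAP-AKO and Control fat. With 5 libraries a group, that does not show that the groups are equal. In edgeR's test 0 of 9 passed an adjusted p of 0.05 (background 0.101%), and 0 of 9 had an unadjusted p under 0.05, against 15.5% of all genes tested. That second count moved with the fit: it was 2 of 9, both lower, with total counts alone as the scaling, without PexRAP-AKO replicate 1 and with the replicate number as a block, 1 of 9 with DESeq2, and 0 to 2 over the 22 alternatives. With total counts alone the median log2 fold change over all genes tested was itself -0.073. DESeq2 passed 0 of the 8 for which it gave an adjusted p (Cnn1 had none), against a background of 3.75%, and limma voom passed 0 of 9. The groups overlapped for all 9, whereas 3.41% of all genes tested had groups that did not overlap. The fold change was below 0 for 7 of 9, and for 50.2% of all genes tested. The exceptions were Cspg4 and Cnn1, and Cspg4 turned slightly negative under 2 of the 3 other scalings tried. Under those 2, total counts alone and the upper quartile, the median over all genes tested was also lower, at -0.073 and -0.015. The median log2 fold change was -0.14 over the 9 markers (-0.19 over the pericyte 4, -0.14 over the smooth muscle 5), against -0.00065 over all genes tested. Without PexRAP-AKO replicate 3 the median was -0.067 over the 9, -0.11 over the pericyte 4 and -0.058 over the smooth muscle 5, and without Control replicate 7 it was -0.075 over the smooth muscle 5. In whole tissue, fewer mural cells and less of these RNAs per cell cannot be told apart.

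**Figure D1:**
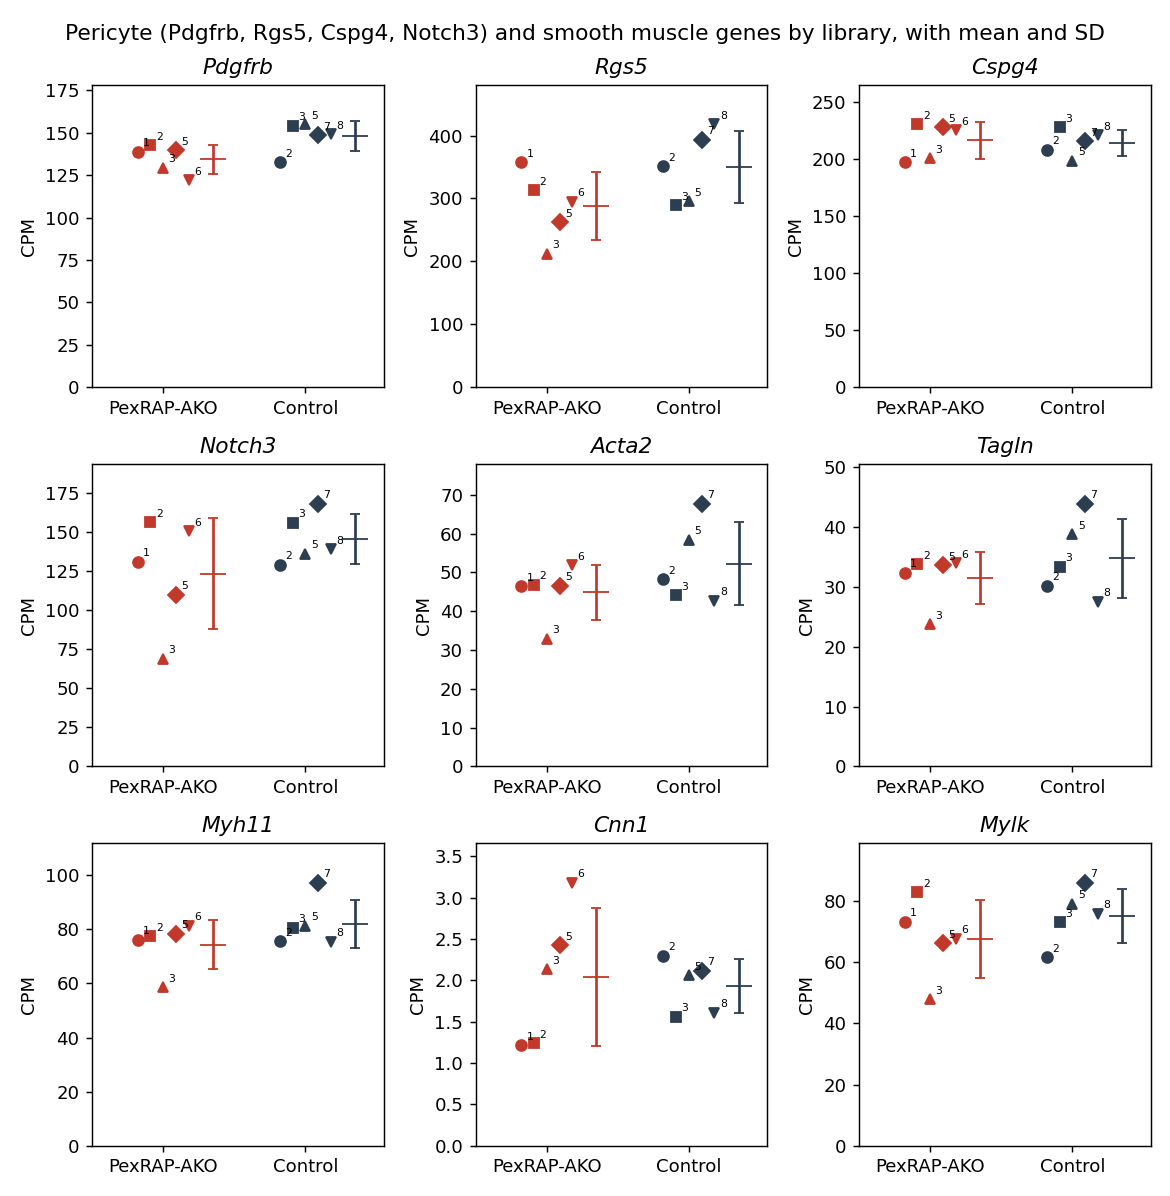
CPM (TMM-scaled, linear axes starting at 0) of each of the 9 markers in every library, with PexRAP-AKO on the left and Control on the right of each panel; points are libraries, and bars give the mean and SD of 5. The points of the groups overlap in all 9 panels, and a single PexRAP-AKO library, replicate 3, lies lowest for Rgs5, Notch3, Acta2, Tagln, Myh11 and Mylk.

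Pdgfrb (ENSMUSG00000024620, chr18:61045150-61085061, plus strand) encodes PDGFRβ, the receptor by which pericytes are held on the vessel. It measured 139, 142, 129, 139.6 and 122 CPM in PexRAP-AKO replicates 1, 2, 3, 5 and 6, against 133, 154, 155, 149 and 149 CPM in Control replicates 2, 3, 5, 7 and 8. All 5 PexRAP-AKO libraries were below the Control median, but Control replicate 2 fell within the PexRAP-AKO range, so the groups overlapped. The means were 134 ± 8.52 CPM in PexRAP-AKO and 148 ± 8.92 CPM in Control (SD, n = 5 each). The log2 fold change was -0.14 (SE 0.064, 95% interval -0.28 to 0.0021, adjusted p = 0.330), with an exact two-sided permutation p of 0.0635, where the smallest p that 5 against 5 allows is 0.00794. As a linear fold this was 0.909 (95% interval 0.825 to 1.00), the narrowest interval among the 9 markers together with that of Cspg4.

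Rgs5 (ENSMUSG00000026678, chr1:169655501-169695813, plus strand) encodes a GTPase-activating protein for G proteins that is among the most abundant pericyte transcripts. Its values were 358, 313, 213, 262 and 295 CPM in the same order of PexRAP-AKO libraries, against 351, 289.6, 295, 393 and 418 CPM in the Control libraries. PexRAP-AKO replicate 3 was the lowest of the 10 and Control replicate 8 the highest, and 4 of 5 PexRAP-AKO libraries lay below the Control median. The log2 fold change was -0.28 (SE 0.15, 95% interval -0.59 to 0.039, adjusted p = 0.390), a fold of 0.825 (95% interval 0.662 to 1.03). This was the largest decrease in value among the 9, and its exact permutation p was 0.127.

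Cspg4 (ENSMUSG00000032911, chr9:56865033-56899870, plus strand) encodes NG2, a membrane proteoglycan of pericytes that is also made by glial precursors. It was the steadiest of the 9, at 197, 231, 201, 228 and 225 CPM in PexRAP-AKO, against 209, 228, 199, 216 and 221 CPM in Control. The highest library was only 1.17 times the lowest. The means were 217 ± 16.0 CPM in PexRAP-AKO and 214 ± 11.3 CPM in Control (SD, n = 5 each). The fold was 1.01 (95% interval 0.911 to 1.12), with an adjusted p of 0.944 in edgeR's test.

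Notch3 (ENSMUSG00000038146, chr17:32120820-32166852, minus strand) encodes the Notch receptor of mural cells. It measured 131, 157, 69.0, 110.1 and 150.5 CPM in PexRAP-AKO, against 129, 156, 136, 168 and 139 CPM in Control. The 5 Control libraries lay close together, whereas PexRAP-AKO ran from the lowest value of all, in replicate 3, to values inside the Control range in replicates 1, 2 and 6. The coefficient of variation was 28.7% in PexRAP-AKO and 10.95% in Control. Over the 5392 genes with a mean of 30 to 350 CPM its median was 8.58% in PexRAP-AKO and 7.41% in Control. Between the groups the log2 fold change was -0.24 (SE 0.19, 95% interval -0.66 to 0.18, adjusted p = 0.587). The antisense gene Gm17276 shares 628 exon bases with Notch3 and held 11 to 21 counts in PexRAP-AKO libraries and 13 to 30 in Control libraries.

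The smooth muscle genes encode the contractile apparatus, and the promoters of Acta2 and Cnn1 are shown. RefSeq promoter windows of 300 bases (GRCm38.p6, 250 before to 50 after the start) were usable for 6 of the 9 markers. Acta2 encodes smooth muscle α-actin. The 250 bases before its start (chr19:34255374-34255623, minus strand, given 5′ to 3′ along the gene) hold 2 CArG-like elements, in capitals, whose first bases lie 84 and 34 bases before the start. The outer end of Acta2 in GENCODE falls inside this stretch, so the annotations place its start differently. Cnn1 encodes calponin, an actin-binding protein of smooth muscle, and its 250 bases (chr9:22099003-22099252, plus strand) hold none of the motifs searched.
Acta2: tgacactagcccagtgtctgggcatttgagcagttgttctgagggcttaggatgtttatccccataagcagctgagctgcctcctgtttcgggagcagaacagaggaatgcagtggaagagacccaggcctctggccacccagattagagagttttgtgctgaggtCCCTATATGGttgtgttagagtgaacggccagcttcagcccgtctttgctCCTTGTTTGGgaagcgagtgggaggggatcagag
Cnn1: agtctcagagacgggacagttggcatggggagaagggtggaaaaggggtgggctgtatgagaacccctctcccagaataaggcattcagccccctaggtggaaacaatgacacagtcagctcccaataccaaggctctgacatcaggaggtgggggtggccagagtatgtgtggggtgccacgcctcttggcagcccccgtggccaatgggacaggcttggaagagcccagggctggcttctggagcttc
The CArG-like element searched begins with CC, ends with GG and has 6 bases between them of which at most 1 is G or C; it reads the same on both strands. It was present in 9.98% of 32851 RefSeq promoter windows and in 1 of the 6 markers, Acta2. The stricter CArG box, with only A or T between, was in 1.63% of windows and in 0 of 6. The TATA motif TATAAA, on the gene's strand, was in 8.32% of windows and in 0 of 6. TGGGAA, the core bound by the Notch effector RBPJ, on either strand, was in 25.6% of windows and in 1 of 6, again Acta2, where it overlaps the CArG-like element nearest the start. These are matches of letters and not measured binding, and their part in the levels was not tested.

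Acta2 (ENSMUSG00000035783, chr19:34241090-34255590, minus strand) measured 46.5, 46.8, 32.9, 46.6 and 51.9 CPM in PexRAP-AKO, against 48.2, 44.2, 58.4, 67.8 and 42.7 CPM in Control. Of the PexRAP-AKO libraries 4 lay between 46.5 and 51.9 CPM, and replicate 3 stood below them; Control was wider, with replicates 5 and 7 above every PexRAP-AKO library. The log2 fold change was -0.22 (SE 0.15, 95% interval -0.54 to 0.11, adjusted p = 0.516), with an exact permutation p of 0.278. Tagln (ENSMUSG00000032085, chr9:45929619-45936058, minus strand), which encodes the actin-bundling protein SM22α, measured 32.4, 33.7, 23.7, 33.6 and 34.0 CPM in PexRAP-AKO, against 30.2, 33.4, 38.8, 43.9 and 27.6 CPM in Control. It followed the same outline, with replicate 3 low among PexRAP-AKO and replicates 5 and 7 high among Control. Its log2 fold change was -0.14 (SE 0.14, 95% interval -0.44 to 0.15, adjusted p = 0.652). Of the 1988 exon bases of Tagln, 1700 are shared with the antisense gene Gm48529 and 243 with Pcsk7 on the opposite strand. The strand setting of the counting is not given in the sources used here. Part of the Tagln count may therefore belong to its neighbours, or reads in the shared bases may have gone uncounted. Pcsk7 itself held 513 to 689 counts in PexRAP-AKO and 439 to 877 in Control.

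Myh11 (ENSMUSG00000018830, chr16:14194535-14291372, minus strand) encodes smooth muscle myosin heavy chain, the most restricted marker of the lineage. Its level was 76.3, 77.5, 58.5, 78.4 and 81.4 CPM in PexRAP-AKO, against 75.7, 80.7, 81.4, 97.3 and 75.4 CPM in Control. Outside PexRAP-AKO replicate 3 at the bottom and Control replicate 7 at the top, the other 8 libraries lay between 75.4 and 81.4 CPM. For this gene the log2 fold change was -0.14 (SE 0.096, 95% interval -0.35 to 0.069, adjusted p = 0.516). Mylk (ENSMUSG00000022836, chr16:34745210-35002420, plus strand), the gene of myosin light chain kinase, measured 73.3, 83.0, 47.9, 66.3 and 67.7 CPM in PexRAP-AKO, against 61.7, 73.2, 79.2, 86.1 and 75.9 CPM in Control. It was again lowest in PexRAP-AKO replicate 3 and highest in Control replicate 7. For Mylk the log2 fold change was -0.15 (SE 0.13, 95% interval -0.44 to 0.14, adjusted p = 0.617). The Mylk locus also makes telokin and a nonmuscle kinase form, which a count per gene does not separate, and it shares 548 exon bases with the antisense gene E130310I04Rik.

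Cnn1 (ENSMUSG00000001349, chr9:22099216-22109630, plus strand) was close to the limit of what these libraries measure. Its raw counts were 15, 19, 28, 27 and 45 in PexRAP-AKO, against 27, 31, 41, 26 and 20 in Control. In CPM these were 1.21, 1.24, 2.13, 2.43 and 3.18 in PexRAP-AKO, against 2.30, 1.56, 2.06, 2.11 and 1.61 in Control. The PexRAP-AKO libraries held both the 2 lowest and the 2 highest values of the 10, and their range covered that of Control. The log2 fold change was 0.083 (SE 0.27, 95% interval -0.51 to 0.68, adjusted p = 0.915). As a linear fold this was 1.06 (95% interval 0.702 to 1.60), the widest interval among the 9. PexRAP-AKO replicate 6, the highest for Cnn1, also had the highest score of epithelial and myoepithelial markers, at 3.80 against 1.76 to 2.03 in the other PexRAP-AKO libraries and 2.01 to 2.61 in Control (mean log2 CPM of the 4 tested genes of that list). That score pools epithelial with myoepithelial genes and does not tell these cells apart. In PexRAP-AKO Krt19 reached 20.4, Cdh1 10.5 and Oxtr 23.9 CPM, against 3.99, 1.38 and 21.9 CPM in Control. Trp63 reached 9.21 CPM in PexRAP-AKO and 13.6 CPM in Control. Krt5 and Krt14 were too low to test. Myoepithelial cells make several contractile proteins, and the part of such cells in the Cnn1 value was not tested. Without PexRAP-AKO replicate 6 the log2 fold change of Cnn1 was -0.14.

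**Figure D2:**
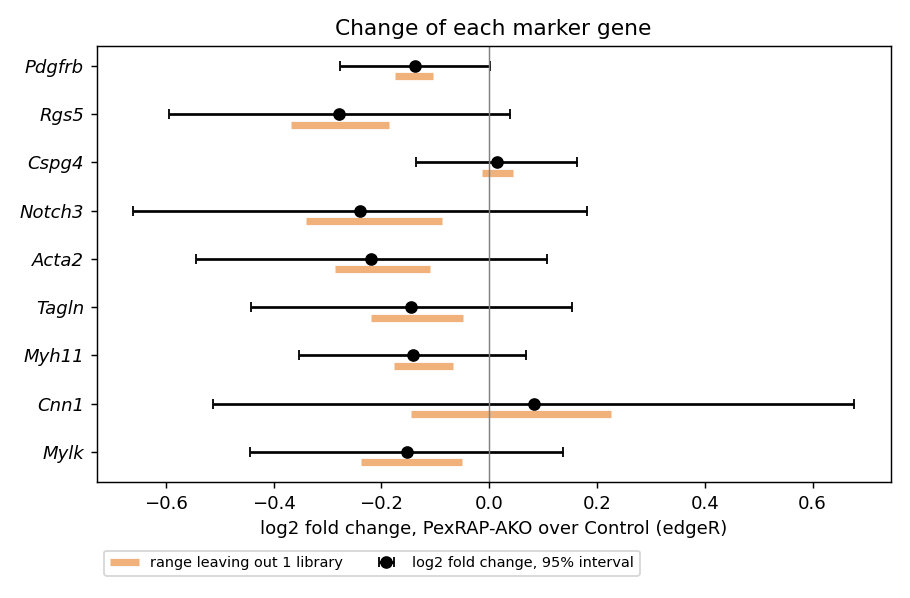
Log2 fold change, PexRAP-AKO over Control, of the 9 markers from edgeR's fit, with 95% intervals as black bars, the range of values when 1 library is left out as orange bars, and a line at 0. Pericyte markers are above and smooth muscle markers below; every interval includes 0, with Pdgfrb at -0.14 (-0.28 to 0.0021) the nearest to leaving it out and Cnn1 the widest.

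Divided by the length of the exon union, which allows levels of different genes to be set side by side, Rgs5 led with 63.4 CPM per kilobase in PexRAP-AKO and 76.8 in Control. Its libraries did not overlap those of the next gene, Pdgfrb, at 24.5 in PexRAP-AKO and 27.0 in Control. Next, in the order of the Control means, came Acta2 (20.5 in PexRAP-AKO, 23.8 in Control), Notch3 (15.3 in PexRAP-AKO, 18.03 in Control), Cspg4 (18.1 in PexRAP-AKO, 17.98 in Control) and Tagln (15.8 in PexRAP-AKO, 17.5 in Control). Neighbours from Pdgfrb to Tagln overlapped in both groups of mice. Below them stood Myh11, at 9.79 CPM per kilobase in PexRAP-AKO and 10.8 in Control, Mylk, at 6.005 in PexRAP-AKO and 6.68 in Control, and Cnn1, at 0.745 in PexRAP-AKO and 0.705 in Control, none of which overlapped its neighbours. With the longest transcript as the length, Cspg4 moved up to the third place and Notch3 down to the sixth, while the first, the second and the last 3 places were the same, though Notch3, Myh11 and Mylk then overlapped as neighbours in PexRAP-AKO. Per length, Cnn1 was at a small fraction of the level of the other contractile genes in both groups.

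A library of each group stood at the end of most of these orders. PexRAP-AKO replicate 3 had the lowest value of all 10 libraries for 6 of the 9 markers (Rgs5, Notch3, Acta2, Tagln, Myh11 and Mylk), and Control replicate 7 had the highest for 5 (Notch3, Acta2, Tagln, Myh11 and Mylk). Leaving out Cnn1, PexRAP-AKO replicate 3 was below the mean over libraries for 8 of 8 markers and Control replicate 7 above it for 8 of 8. PexRAP-AKO replicate 2 and Control replicates 3 and 5 were above the mean for 6 of 8, and PexRAP-AKO replicate 6 and Control replicate 8 for 5. PexRAP-AKO replicate 5 was above it for 3, and PexRAP-AKO replicate 1 and Control replicate 2 for 2. In PexRAP-AKO replicate 3 the deviation from the mean over libraries, in log2 CPM, was -0.93 for Notch3, -0.56 for Rgs5, -0.56 for Mylk and -0.54 for Acta2, but -0.12 for Pdgfrb and -0.098 for Cspg4.

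**Figure D3:**
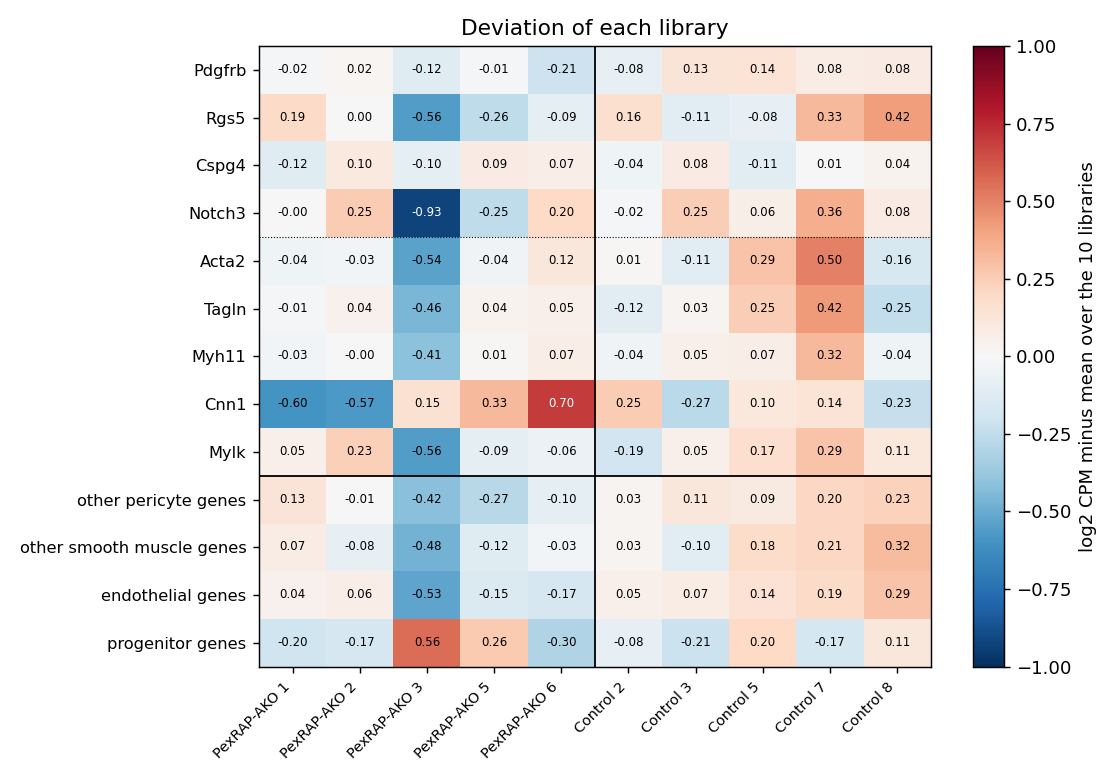
Deviation of each marker's log2 CPM (prior count 2) from its mean over the 10 libraries, with markers as rows, libraries as columns (PexRAP-AKO on the left, Control on the right) and colour from low (blue) to high (red); the lower 4 rows give the scores of other pericyte, other smooth muscle, endothelial and progenitor genes in the same way. The PexRAP-AKO 3 column is low for Rgs5, Notch3, Acta2, Tagln, Myh11 and Mylk, the Control 7 column is high for the same genes, and the Cnn1 row follows neither.

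Across the 10 libraries Acta2, Tagln and Myh11 varied together. Cnn1 did not follow them, with r of 0.20 to Acta2, 0.077 to Tagln and 0.069 to Myh11. It held only 15 to 45 counts in each library, so counting error limits its r. Of the 36 pairs among the 9 markers, 32 had a positive Pearson r of log2 CPM, and 7 passed an adjusted permutation p of 0.05 (100000 resamples, Benjamini-Hochberg over the 36 pairs). Tagln and Myh11 had r = 0.93 (adjusted permutation p = 0.00072) and Spearman's rho = 0.95 (adjusted permutation p = 0.00432). Acta2 and Tagln had r = 0.95 (adjusted permutation p = 0.00252) and rho = 0.87 (adjusted permutation p = 0.0382). These 2 pairs alone also passed by rank. Without the 2 libraries farthest from the median, PexRAP-AKO replicate 3 and Control replicate 7, r was 0.80 for Tagln and Myh11 and 0.78 for Acta2 and Tagln.

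The other 5 pairs were Acta2 with Myh11 (r = 0.93), Notch3 with Mylk (r = 0.89), Notch3 with Myh11 (r = 0.87), Myh11 with Mylk (r = 0.84) and Tagln with Mylk (r = 0.78). Their rho values were 0.79, 0.79, 0.60, 0.54 and 0.64 in that order, with adjusted permutation p of 0.0842, 0.0842, 0.297, 0.373 and 0.274. Myh11 with Mylk and Tagln with Mylk rested on PexRAP-AKO replicate 3 and Control replicate 7, since r without them was 0.14 and 0.29. Among the pericyte markers 0 of 6 pairs passed, with a median r of 0.39, against 5 of 10 pairs and a median of 0.76 among the smooth muscle markers. Notch3 paired with contractile genes and with no pericyte marker past the threshold, its r with Rgs5 being 0.71 (adjusted permutation p = 0.0734). Cspg4 and Cnn1 were in none of the 7 pairs. With group means removed, r stayed between 0.76 and 0.95 for the 7.

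Genes of the same cell types and pathways were put in lists by function, with earlier results of these data known. None of them was called in edgeR's test either. Over all genes tested, 50.2% were below 0, 15.5% had an unadjusted p under 0.05 in that test and 6.44% were lower at that p. The 15 other pericyte markers were all below 0, with a median log2 fold change of -0.24, and 6 of 15 had an unadjusted p under 0.05, all lower, against 6.44% of all genes tested lower at that p. Ednra, the endothelin receptor of mural cells, averaged 25.0 ± 3.07 CPM in PexRAP-AKO and 30.4 ± 2.03 CPM in Control (SD, n = 5 each), with groups that did not overlap and an adjusted p of 0.188. Abcc9, the sulfonylurea receptor subunit of the pericyte potassium channel, averaged 127 ± 11.9 CPM in PexRAP-AKO and 147 ± 5.50 CPM in Control (SD, n = 5 each; adjusted p = 0.201). Gucy1b1, a subunit of the nitric oxide receptor guanylate cyclase, had a log2 fold change of -0.27 (SE 0.087, adjusted p = 0.190), and Vtn, vitronectin, one of -0.39 (SE 0.14, adjusted p = 0.225). Without 1 library 14 or 15 of the 15 were below 0 and 5 to 9 had an unadjusted p under 0.05, the 9 without PexRAP-AKO replicate 1. With the endothelial score described further on as a covariate, 9 of 15 were below 0 and 1 had an unadjusted p under 0.05. That score was itself lower in PexRAP-AKO, so here and below this fit cannot tell it from the group.

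Of 25 other smooth muscle markers 23 were tested, 17 of 23 were below 0 and the median was -0.20. In edgeR's test 4 of 23 had an unadjusted p under 0.05, all lower, against 6.44% of all genes tested. That count of 4 was 9 without Control replicate 3, and 2 without either PexRAP-AKO replicate 5 or Control replicate 5. With the endothelial covariate 11 of 23 were below 0 and 0 were lower at that p. Ppp1r14a, the inhibitor of myosin phosphatase known as CPI-17, averaged 2.04 ± 0.484 CPM in PexRAP-AKO and 3.31 ± 0.464 CPM in Control (SD, n = 5 each), a log2 fold change of -0.69 (SE 0.19, adjusted p = 0.146). Cacna1c, the L-type calcium channel, had -0.40 (SE 0.18, adjusted p = 0.315). Synpo2 (-1.34, SE 0.43, adjusted p = 0.206) and Tpm2 (-0.84, SE 0.35, adjusted p = 0.292) are also made by skeletal muscle. Skeletal muscle markers varied widely between libraries, with a score from -0.46 to 2.75 in PexRAP-AKO and 0.096 to 5.32 in Control, and all 13 tested were below 0 (median -2.40). Without Control replicate 8 the median was -1.18, and with limma voom it was -1.27 with 0 of 13 at an unadjusted p under 0.05. The part of muscle carried over with the fat in those values was not tested. When the skeletal muscle score was added to the fit, 0 of the 9 mural markers passed and 8 of 9 were below 0.

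The 16 genes that control myosin light chain phosphorylation had a median of -0.060. At an unadjusted p under 0.05 in edgeR's test 4 were lower and 1 higher, against 15.5% of all genes tested in either direction. Prkg1, the cyclic GMP kinase that relaxes smooth muscle, was at a log2 fold change of -0.25 (SE 0.079, adjusted p = 0.185), and Rock2, a kinase that inhibits myosin phosphatase, at -0.35 (SE 0.13, adjusted p = 0.228). Among 19 SRF and myocardin regulators the median was -0.083. In edgeR's test 3 of 19 were lower at an unadjusted p under 0.05, against 6.44% of all genes tested. Mkl2, a myocardin-related coactivator, averaged 71.3 ± 2.83 CPM in PexRAP-AKO and 80.1 ± 1.42 CPM in Control (SD, n = 5 each; adjusted p = 0.152), and Tead1, a transcription factor of the Hippo pathway, had -0.39 (SE 0.13, adjusted p = 0.201). DESeq2 passed Mkl2 (-0.17, adjusted p = 0.0339).

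The signals that act on the pericyte receptors were measured in the same libraries. Among the PDGF ligands and other receptors 5 of 6 were below 0. Pdgfb, the ligand of PDGFRβ made by endothelium, averaged 29.9 ± 5.09 CPM in PexRAP-AKO and 38.5 ± 5.51 CPM in Control (SD, n = 5 each), a log2 fold change of -0.37 (SE 0.13, unadjusted p = 0.0174 in edgeR's test, adjusted p = 0.226). Pdgfra, the receptor of fat progenitors, was at 0.017 (SE 0.13, adjusted p = 0.964). In the Notch pathway 19 of 22 genes were below 0, against 50.2% of all genes tested, with a median of -0.13. At an unadjusted p under 0.05 in edgeR's test 3 of 22 were lower, against 6.44% of all genes tested. That count was 5 without PexRAP-AKO replicate 1 or Control replicate 2. With the endothelial covariate 12 of 22 were below 0. Notch1 averaged 153 ± 22.8 CPM in PexRAP-AKO and 211 ± 27.9 CPM in Control (SD, n = 5 each), at -0.46 (SE 0.12, adjusted p = 0.139). The ligand Jag1 was at -0.26 (SE 0.069, adjusted p = 0.143) and the endothelial ligand Dll4 at -0.42 (SE 0.14, adjusted p = 0.213). DESeq2 passed Notch1 (adjusted p = 0.0181) and Jag1 (adjusted p = 0.0346), and edgeR passed neither. Heyl, a Notch target of mural cells chosen here after its value was seen, was at -0.33 (SE 0.28, adjusted p = 0.602). Of 6 tested relatives of Rgs5 in the R4 family, 3 were below 0 and none had an unadjusted p under 0.05.

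Relatives of the contractile markers matter because reads from near-identical coding sequence can be assigned to either gene or go uncounted, depending on the settings. Enteric actin Actg2 had 97 counts over the 10 libraries and cardiac actin Actc1 had 38, so neither was tested. Of 15 listed relatives 11 were tested, and 9 of 11 were below 0, against 50.2% of all genes tested. Only 1, Myh14, had an unadjusted p under 0.05 in edgeR's test, against 15.5% of all genes tested. Skeletal actin Acta1 was present at 2.86 to 32.0 CPM in PexRAP-AKO and 5.94 to 185 CPM in Control, and its log2 fold change was -1.82 (SE 0.85, adjusted p = 0.342). The nonmuscle myosin Myh14 was at 18.9 ± 1.97 CPM in PexRAP-AKO and 13.3 ± 1.98 CPM in Control (SD, n = 5 each), with groups that did not overlap and an adjusted p of 0.0996 in edgeR's test; DESeq2 passed it at 0.00521. Mylk2 had a log2 fold change of -1.91 (SE 0.89, adjusted p = 0.336 in edgeR's test) and Mylk4 one of -2.09 (SE 1.00, adjusted p = 0.351). The other 7 relatives tested (Actb, Actg1, Cnn2, Cnn3, Myh9, Myh10 and Tagln2) had log2 fold changes between -0.26 and 0.11.

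**Figure D4:**
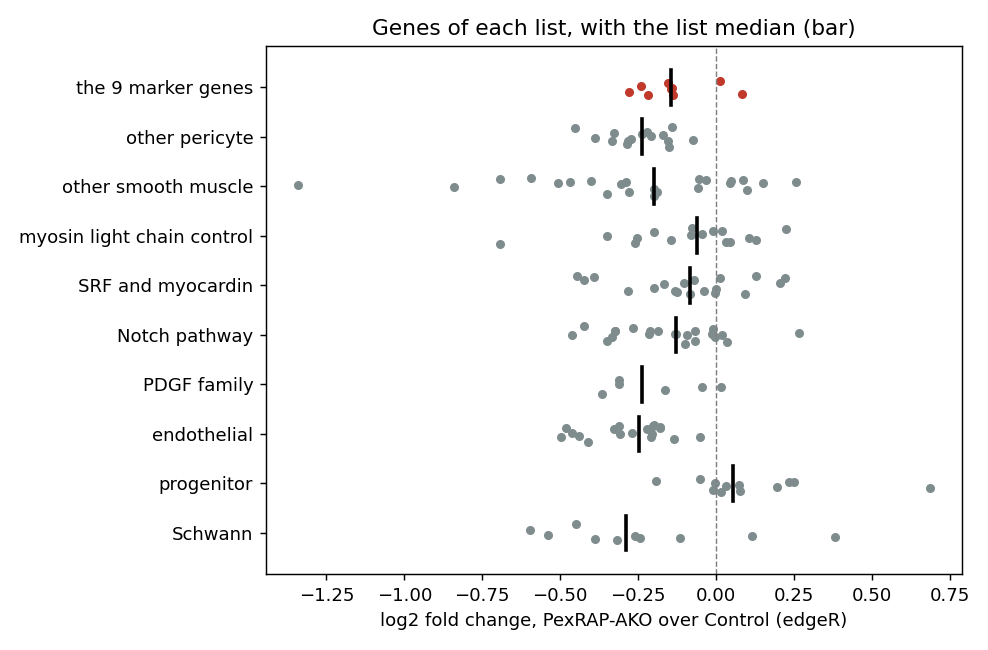
Log2 fold change, PexRAP-AKO over Control, of every tested gene (points) of the 9 mural cell markers and of 9 of the lists, with the median of each as a bar and a dashed line at 0. The other pericyte and the endothelial lists lie wholly below 0, with medians of -0.24 and -0.25, and the 9 markers centre on -0.14.

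Endothelial markers moved with the mean of the pericyte markers from library to library. All 18 endothelial genes were below 0, against 50.2% of all genes tested, with a median of -0.25. In edgeR's test 9 of 18 had an unadjusted p under 0.05, all lower, against 6.44% of all genes tested. After adjustment 0 passed. Their score was 5.32 to 5.91 in PexRAP-AKO and 5.90 to 6.13 in Control (mean log2 CPM), with PexRAP-AKO replicate 3 lowest. Cdh5, VE-cadherin, averaged 156 ± 15.4 CPM in PexRAP-AKO and 193 ± 25.4 CPM in Control (SD, n = 5 each; adjusted p = 0.188), and Robo4 had a log2 fold change of -0.44 (SE 0.14, adjusted p = 0.195). The mean log2 CPM of the 4 pericyte markers followed the endothelial score with r = 0.93 (adjusted permutation p = 0.00648 over 12 relations chosen after the data were seen) and rho = 0.83 (adjusted permutation p = 0.0584). Without PexRAP-AKO replicate 3 and Control replicate 8 it was r = 0.73, and with group means removed r = 0.91. Within that unscaled mean, Notch3 and Rgs5 varied most, with deviations of -0.93 to 0.36 and -0.56 to 0.42 in log2 CPM. Those of Pdgfrb ran from -0.21 to 0.14 and those of Cspg4 from -0.12 to 0.10, so the mean reflects mainly the other 2. The smooth muscle markers gave r = 0.48 with the same score (adjusted permutation p = 0.305).

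With the endothelial score as a covariate in edgeR's fit, the median log2 fold change of the 9 markers was 0.046, 3 of 9 were below 0 and 0 passed. The score nearly separated the groups, at 5.32 to 5.91 in PexRAP-AKO and 5.90 to 6.13 in Control. The fit therefore cannot tell the score from the group. In that fit Rgs5 was at 0.070, Notch3 at 0.18 and Mylk at 0.19, and Pdgfrb, at -0.14 without the covariate, was at -0.067. The mean of the pericyte markers also followed the adipocyte score, with r = 0.74 (adjusted permutation p = 0.0198) and rho = 0.70 (adjusted permutation p = 0.178). But r was 0.43 without PexRAP-AKO replicates 3 and 5, so that relation rested on them. PexRAP-AKO replicate 3, lowest for the mural and endothelial genes, was also lowest in the adipocyte score, at 10.6, and highest in the fat progenitor score, at 7.29 against 6.44 to 6.99 in the other libraries. The part of the makeup of that sample in its low mural marker levels was not tested.

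**Figure D5:**
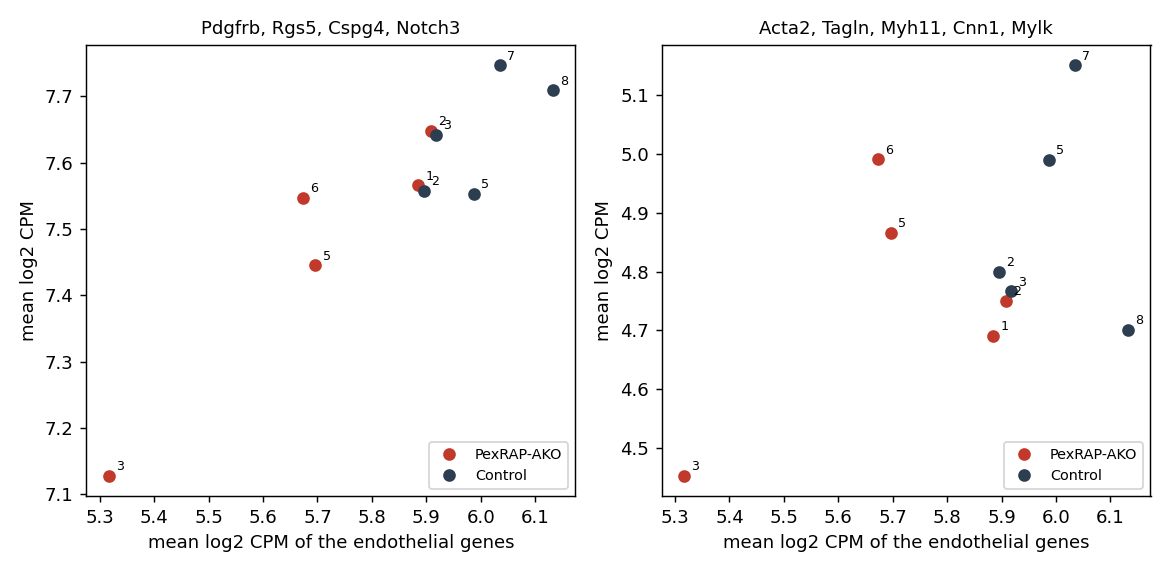
Mean log2 CPM of the 4 pericyte markers and of the 5 smooth muscle markers against the endothelial score (mean log2 CPM of 18 genes) in each library, coloured by group and labelled with its replicate number. The pericyte means follow the score (r = 0.93). The smooth muscle means follow it less tightly in value (r = 0.48), and the difference was not tested. PexRAP-AKO replicate 3 lies at the lower left of both.

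To look for genes of like pattern, each marker was first centred and scaled to the same spread, unlike in the unscaled mean set against the endothelial score. Over the 11015 genes with a mean of at least 5 CPM that are not among the 9, those whose pattern over the 10 libraries was most like that scaled mean of the pericyte markers were Kalrn (r = 0.95), Ppp1r2 (0.95), 4930578C19Rik (0.94), Hr (0.94), Tanc1 (0.93), Unc5b (0.93), Pdcd7 (0.93) and Pola2 (0.93). For the smooth muscle markers they were Eml3 (r = 0.91), Scrib (0.90), Fmo2 (0.90), Mars2 (0.90), Nsun5 (0.89), Tmtc1 (0.88), Sorbs2 (0.87) and Itga3 (0.87). None of the 16 passed an adjusted p of 0.05 between PexRAP-AKO and Control in edgeR's test. They are the top of a ranking over many genes and 10 libraries, given as a description.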

How the data were processed

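RNA-seq was done on total RNA of inguinal white adipose tissue from 5 PexRAP-AKO and 5 Control mice. The deposited values are whole read counts for each gene with no scaling. STAR 2.0.4b, featureCounts of Subread, and edgeR are named in the submitters' processing notes. Genome build, annotation and strand setting were not given in the sources used here. There were 40724 rows for 40501 gene identifiers; 117 identifiers were repeated with equal counts and entered once. GENCODE M21 (GRCm38), which held 99.4% of the identifiers, gave coordinates and lengths, and RefSeq gave promoter sequences.

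Counts were scaled by TMM, filtered with filterByExpr (minimum count 10, minimum total 15) and tested over 14913 genes with the quasi-likelihood F test of edgeR 4.0.16 (R 4.3.3, robust, no covariate), with Benjamini-Hochberg adjustment over all genes tested and a threshold of 0.05. Log2 CPM used a prior count of 2, and scores of lists average this value over the genes tested. Fold changes are PexRAP-AKO over Control. The scripts were tested on simulated counts. Totals ran from 11274865 to 19881168 counts; a gene of few counts, such as Cnn1, is limited by counting error.

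Each label was taken as a separate sample (lowest chi-square per degree of freedom between replicates 7.73); whether each came from a separate mouse is stated only by group, so p-values measure the spread between these samples. The 9 markers and 15 lists (219 symbols, all found) were chosen with earlier results of these data known. Named from the lists were up to 4 genes by p, and from the other genes the 8 most like each marker group. Alternatives were other scalings and filters, DESeq2 1.42.0, limma 3.58.1 voom with and without weights, covariates, a threshold of 0.1, the replicate number as a block, and leaving out each library.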

Additional observations from a re-analysis of the deposited data

Results flagged for a closer look

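In groups of 5 libraries the highest or lowest value was set against the others by its gap over the range, and 7 of 54 groups of values had a library standing apart, where chance gives about 1 in 20 (2.7). PexRAP-AKO replicate 3 stood low for 3 contractile markers: Acta2 at 5.04 log2 CPM, against 5.54 to 5.70 in the other PexRAP-AKO libraries, Tagln at 4.58, against 5.02 to 5.09, and Myh11 at 5.87, against 6.26 to 6.35. These genes vary together, so the 3 are not separate events. Control replicate 2 stood low for Pdgfrb at 7.05 log2 CPM, against 7.22 to 7.28 in the other Control libraries. Among the list scores, Control replicate 5 was low for adipocyte markers at 10.69, against 11.01 to 11.08. PexRAP-AKO replicate 2 was low for skeletal muscle markers at -0.46, against 1.89 to 2.75, and PexRAP-AKO replicate 6 was high for epithelial markers at 3.80, against 1.76 to 2.03. The part of tissue makeup in these values was not tested.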

How the results depend on the processing

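Under each of 22 alternatives 0 of the 9 markers passed, also at an adjusted p of 0.1, and Dhrs7b passed in 22 of 22. The number of all genes past the threshold, 15, was 26 with no filter, 415 with DESeq2, 107 with weighted voom, 98 at an adjusted p of 0.1, 7 with skeletal muscle and 2 with endothelial scores as covariates, and 3 to 58 without 1 library. With the endothelial covariate the median log2 fold change was 0.046 over the 9 and 0.064 over the pericyte 4. In that fit Rgs5 (0.070), Notch3 (0.18), Tagln (0.046), Myh11 (0.028) and Mylk (0.19) turned positive and Cnn1 negative (-0.32). The endothelial score nearly separated the groups, so that fit cannot tell it from the group. Cspg4 was negative with total counts (-0.056) and the upper quartile (-0.00069), where the median over all genes tested was -0.073 and -0.015. It was also negative with the skeletal muscle covariate (-0.015). Without 1 library Cspg4 ran from -0.013 to 0.044, negative without PexRAP-AKO replicate 2, 5 or 6 or Control replicate 5. Cnn1 ran from -0.14 to 0.23 in those fits, negative without PexRAP-AKO replicate 6. The cause was not tested. Without 1 library the median over the 9 ran from -0.19 to -0.067, the end nearest 0 being without PexRAP-AKO replicate 3. Samples with the same replicate number correlated at -0.021, -0.081 and 0.36 in their deviations from group means, and were therefore left unpaired. The replicate block on 6 libraries gave 3 calls over all genes, 0 markers and -0.040 for Cnn1; the same 6 libraries without the block, an alternative chosen after seeing the data, gave 2 calls and -0.040. With 5 libraries a group, the 95% intervals limit what can be said of each marker, and that of Cnn1 was the widest.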

Other observations

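Genes of the Schwann cell and oligodendrocyte lineage, where Cspg4 is also known, were lower in value in PexRAP-AKO. Of the 10 tested, 8 were below 0 with a median log2 fold change of -0.29. In edgeR's test 5 had an unadjusted p under 0.05, all lower, against 6.44% of all genes tested, but 0 passed after adjustment. That count of 5 was 3 without PexRAP-AKO replicate 1 or Control replicate 5, and 0 with the endothelial score as a covariate. Prx, periaxin of the myelin sheath, averaged 13.7 ± 2.05 CPM in PexRAP-AKO and 19.8 ± 4.54 CPM in Control (SD, n = 5 each; edgeR adjusted p = 0.175). DESeq2 passed Prx at an adjusted p of 0.0487. Cspg4 itself did not share this direction, with a log2 fold change of 0.014 (SE 0.068).

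Genes of the matrix made by myofibroblasts centred on a log2 fold change of 0.056 (median of 14 tested, 6 of them below 0), and 12 fat progenitor genes had a median of 0.054 with 4 below 0. Both medians turned negative without PexRAP-AKO replicate 3, to -0.038 for the matrix genes and -0.12 for the progenitor genes (9 of 12 below 0). With the endothelial covariate they were -0.10 and -0.29. With total counts alone they were -0.023 and -0.018, but the median over all genes tested was then -0.073, so both stayed above it. The matrix median was also negative without Control replicate 2 (-0.0083). Without Control replicate 5 it was 0.21, while with the replicate block 0 of the 12 progenitor genes were below 0. In both lists 0 genes had an unadjusted p under 0.05 in edgeR's test. Postn, periostin, averaged 400.3 ± 266 CPM in PexRAP-AKO and 261 ± 81.3 CPM in Control (SD, n = 5 each; edgeR adjusted p = 0.518).

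Of the 14 adipocyte markers 11 were below 0 (median -0.10, running from -0.17 without PexRAP-AKO replicate 1 or Control replicate 5 to -0.057 without PexRAP-AKO replicate 3, and 0.013 with the endothelial covariate) and 1 had an unadjusted p under 0.05 in edgeR's test. That gene was Cfd, adipsin, with a log2 fold change of -0.47 (SE 0.12, edgeR adjusted p = 0.135), and DESeq2 passed it at an adjusted p of 0.000668. Of 4 epithelial genes tested 1 was below 0, and their median was 0.77. Without PexRAP-AKO replicate 6 the median was -0.35 with 3 of 4 below 0, with limma voom it was 0.13, and with the replicate block -0.064.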
